A study of Mus musculus with 9 samples.

Results

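The genes described here encode muscarinic acetylcholine receptors and the proteins by which cholinergic neurons make, load, recover and break down acetylcholine. They were the 9 genes Chrm1, Chrm2, Chrm3, Chrm4, Chat, Slc18a3, Slc5a7, Ngfr and Ache, taken by their symbols in the array's annotation. Of these, 8 had a probe set, the group of short probes that reads 1 transcript, and 11 probe sets served them in all. Chrm2 was not analysed here. RNA came from tissue punches of 3 mouse forebrain regions, with 3 samples per region and 1 Affymetrix Mouse430_2 array per sample. BNST is the bed nucleus of the stria terminalis, part of the limbic forebrain. NAc stands for the nucleus accumbens, or ventral striatum, and dStr for the dorsal striatum. All mice were anaesthetised with isoflurane and decapitated, and no group carried a treatment or an engineered allele per the labels. The labels used here give no strain, sex or age. The labels call the samples biological replicates without naming animals, so that the p-values measure the spread between these samples only.

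In the striatum, acetylcholine comes mainly from large interneurons that are few in number but branch densely. Choline is taken up by the transporter Slc5a7, turned into acetylcholine by choline acetyltransferase (Chat), packed into vesicles by Slc18a3 and split after release by acetylcholinesterase (Ache). Chrm1 and Chrm3 signal through Gq proteins and phospholipase C, whereas Chrm2 and Chrm4 signal through Gi proteins and lower cyclic AMP. Chrm1 and Chrm4 are known from the medium spiny projection neurons of the striatum, and Ngfr, the low-affinity neurotrophin receptor, marks basal forebrain cholinergic neurons.

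Values are linear intensities with a common floor of 15.0, and the 9 arrays had medians from 93.9 to 102. Differences are on the scale of log2(intensity + 16), the first region minus the second, and a gene was called at a Benjamini-Hochberg adjusted p under 0.05 in limma's moderated test over all genes. Folds were computed from these differences, so that they carry the added 16 and are not plain ratios of intensities. A probe set entered the tests if it exceeded an array's own 40th percentile, an intensity of 71.5 to 76.6, on at least 3 arrays. Of the 11 probe sets, 6 were kept, which put 5 of these genes among the 14208 genes tested (Chrm1, Chrm3, Chat, Ngfr and Ache). Chrm4, Slc18a3 and Slc5a7 lay below that level and were fitted apart, without the filter. The arrays BNST 1 and NAc 1 resembled their own regions least. Across genes, BNST 1 correlated with NAc 3 at r = 0.97, and with BNST 2 and BNST 3 at 0.93 and 0.95.

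**Figure D1:**
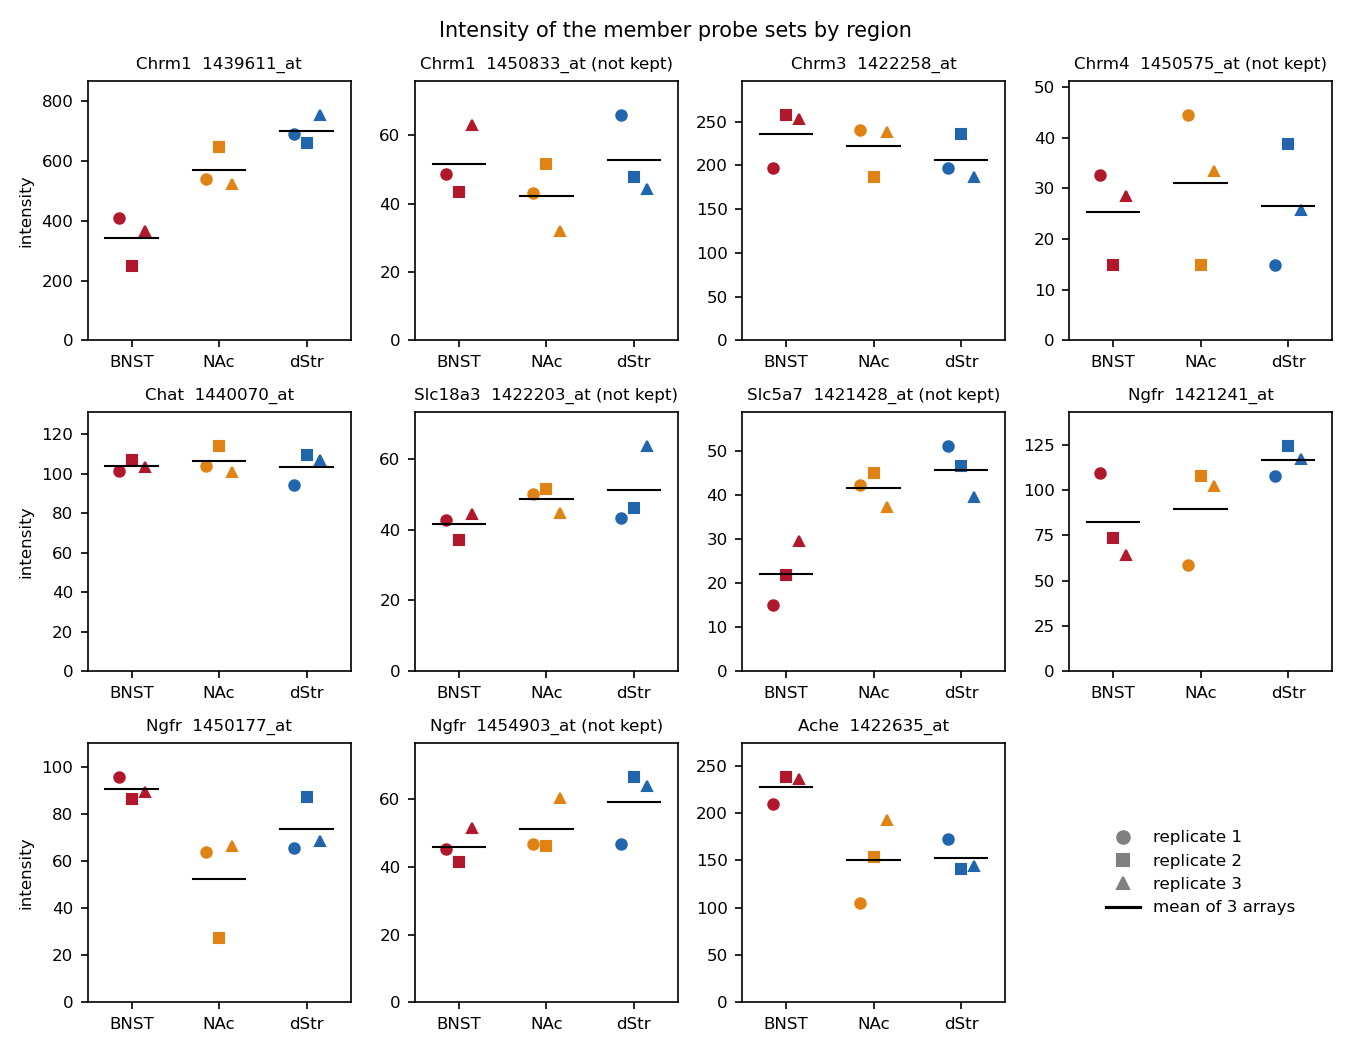
Intensity (linear, vertical axes from 0) of each of the 11 probe sets on the 9 arrays, by region, with marker shapes for replicate numbers and a line at the mean of 3 arrays. Chrm1 probe set 1439611_at steps up from BNST to NAc to dStr without overlap, Ache is highest on the 3 BNST arrays, and Chat lies between 94.4 and 114 on all 9.

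The receptor Chrm1 was lower in BNST than in dStr. Its probe set 1439611_at read 410, 249 and 364 on the 3 BNST arrays, 540, 645 and 523 on the NAc arrays, and 691, 659 and 752 on the dStr arrays. Every BNST array lay below every NAc array, and every NAc array below every dStr array. The means were 341 ± 82.9 in BNST, 569 ± 66.3 in NAc and 701 ± 47.5 in dStr (SD, n = 3 each).

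The BNST value minus the dStr value was -1.03 (SE 0.18, 95% interval -1.43 to -0.63), or 2.04-fold lower in BNST, with a limma adjusted p of 0.00404. Chrm1 was the only 1 of the 5 genes called in that comparison, where 14.3% of all genes were called, 4.94% higher and 9.33% lower in BNST. It was also the only 1 called by the F test over the 3 regions (adjusted p = 0.0106), which called 10.3% of all genes. Its difference from NAc of -0.74 (-1.14 to -0.33) did not pass, with a limma adjusted p of 0.0694. It passed there without BNST 1 (-0.88, limma adjusted p = 0.0266) and without both BNST 1 and NAc 1 (-0.91, limma adjusted p = 0.0116). Over all single arrays left out, the difference ranged from -0.88 to -0.53 and the limma adjusted p from 0.0266 to 0.251. The NAc value minus the dStr value was -0.30 (-0.70 to 0.10, limma adjusted p = 0.552). In bulk tissue, fewer cells that express a gene and less of its RNA per cell cannot be told apart.

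The second Chrm1 probe set, 1450833_at, was not kept and overlapped between all regions, with means of 51.7 ± 10.1 in BNST, 42.2 ± 9.84 in NAc and 52.7 ± 11.6 in dStr (SD, n = 3 each). The regional step of Chrm1 therefore rests on 1 probe set. Markers of medium spiny neurons moved with it. Of 13 such genes tested, 12 were lower in BNST than in dStr and 10 lower than in NAc. Over all genes, 9.33% were lower in BNST than in dStr, and 2.24% were called in either direction against NAc. Their summed intensity was 4536 to 10520 on the BNST arrays, 18599 to 27810 on the NAc arrays and 34006 to 37311 on the dStr arrays, and none of the 13 stood at the floor. Their part in the Chrm1 difference was not tested.

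Chrm3, the other Gq-coupled receptor measured, did not separate the regions. It read 197, 257 and 253 in BNST, 241, 187 and 238 in NAc, and 197, 236 and 186 in dStr, with overlap throughout. Its differences were 0.08 (95% interval -0.27 to 0.43) between BNST and NAc, 0.18 (-0.18 to 0.53) between BNST and dStr and 0.10 (-0.26 to 0.45) between NAc and dStr. A change as large as that of Chrm1 between BNST and dStr lies outside its interval. Chrm3 was read by probe set 1422258_at alone, and whether that probe set follows the transcript was not tested.

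Chrm4, the Gi-coupled receptor of direct-pathway projection neurons, was too dim on this array for its level to be read. Probe set 1450575_at stood at the floor on 1 array of each region, BNST 2, NAc 2 and dStr 1. The other arrays read 32.7 and 28.5 in BNST, 44.5 and 33.5 in NAc, and 38.8 and 25.7 in dStr. Without the filter its difference between BNST and dStr was -0.03, and the 95% interval of -0.71 to 0.66 left room for changes of either sign.

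The genes of acetylcholine synthesis and loading gave differing pictures. Chat, which makes acetylcholine and defines cholinergic neurons, was nearly level, at 102, 107 and 103 in BNST, 104, 114 and 101 in NAc, and 94.4, 110 and 107 in dStr. The means were 104 ± 2.82, 106 ± 6.80 and 104 ± 8.11 (SD, n = 3 each), and all regions overlapped. The widest 95% interval edges over its 3 differences were -0.29 and 0.29, on either side of 0. Chat was read by probe set 1440070_at alone, at about the array medians of 93.9 to 102. Whether that probe set follows the transcript was not tested.

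Slc18a3, the vesicular acetylcholine transporter, lies within the span of the Chat gene in the RefSeq annotation. Its probe set 1422203_at was not kept and read 42.8, 37.0 and 44.5 in BNST, 50.04, 51.3 and 44.7 in NAc, and 43.4, 46.2 and 63.5 in dStr. The BNST arrays lay below the NAc arrays, by less than 1 intensity unit at the nearest pair, and overlapped with dStr. Without the filter its differences were -0.17 between BNST and NAc (limma adjusted p = 0.707) and -0.21 between BNST and dStr (limma adjusted p = 0.338).

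Slc5a7, the high-affinity choline transporter that limits acetylcholine synthesis, read lower on every BNST array than on any striatal array. Its probe set 1421428_at read 15.0 (the floor), 21.8 and 29.7 in BNST, 42.4, 44.9 and 37.3 in NAc, and 51.1, 46.5 and 39.7 in dStr. NAc and dStr overlapped. All these values lie below the level set for the tests, so the gene entered only the fit without the filter. There its difference between BNST and dStr was -0.71 (SE 0.15, 95% interval -1.05 to -0.36, limma adjusted p = 0.0202), where 11.1% of 18193 genes were called and 7.01% were called lower. Against NAc it was -0.61 (-0.95 to -0.26, limma adjusted p = 0.113). The call was lost without BNST 2, dStr 1 or dStr 2, where the limma adjusted p was 0.0673, 0.0825 and 0.0621. The size also followed the constant added before the logarithm, being -1.06 with 1 and -0.35 with 64.

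Ache, the enzyme that ends the acetylcholine signal, was ordered the other way. It read 210, 238 and 236 in BNST, 105, 153 and 193 in NAc, and 173, 141 and 144 in dStr. Every BNST array lay above every NAc and dStr array, while NAc spanned the whole range of dStr. The means were 228 ± 15.8, 150 ± 44.0 and 153 ± 17.5 (SD, n = 3 each). Ache was read by probe set 1422635_at alone, and whether that probe set follows the transcript was not tested.

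In BNST, Ache was 1.502-fold above NAc (0.59, SE 0.19, 95% interval 0.16 to 1.01, limma adjusted p = 0.179) and 1.45-fold above dStr (0.54, 0.11 to 0.96, limma adjusted p = 0.0895), and neither difference passed. The difference from dStr passed without NAc 1 (limma adjusted p = 0.0237) and without both BNST 1 and NAc 1 (0.59, limma adjusted p = 0.0134). That from NAc passed without NAc 3 (0.77, limma adjusted p = 0.0497). Over all single arrays left out, Ache ranged from 0.37 to 0.77 against NAc, with limma adjusted p from 0.0497 to 0.479. Against dStr it ranged from 0.49 to 0.62, with limma adjusted p from 0.0237 to 0.232. Markers of astrocytes and of ependyma and choroid plexus were also higher in BNST than in dStr, in 5 of 10 and 6 of 8 tested genes. Over all genes, 4.94% were higher. The summed astrocyte intensity was 12457 to 14275 in BNST, 9847 to 10447 in NAc and 9093 to 9482 in dStr. That of ependyma was 1750 to 3665, 566 to 629 and 538 to 635, with Otx2 at the floor on every NAc and dStr array and Tmem212 and Enkur on every dStr array. Otx2 could therefore enter the tests only through the BNST arrays, and Tmem212 and Enkur only through BNST or NAc arrays. The count of ependyma genes depends in part on that entry. Their part in the Ache values was not tested.

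The 250 bases before the RefSeq start sites of Ache and Slc5a7 are shown because every BNST array lay above the dStr arrays for Ache and below them for Slc5a7, though Ache did not pass the test and Slc5a7 lay below the level set for it. They were read 5′ to 3′ on the gene's strand of GRCm38.p6. That of Ache spans chr5:137288004-137288253 on the plus strand, with GGGCGG, the core of a GC box, in capitals. That of Slc5a7 spans chr17:54299035-54299284 on the minus strand, where the capitals mark TATAAA. These are the letters of the TATA box, but here they begin at position -187 from the start site, away from the usual place of that element.
Ache: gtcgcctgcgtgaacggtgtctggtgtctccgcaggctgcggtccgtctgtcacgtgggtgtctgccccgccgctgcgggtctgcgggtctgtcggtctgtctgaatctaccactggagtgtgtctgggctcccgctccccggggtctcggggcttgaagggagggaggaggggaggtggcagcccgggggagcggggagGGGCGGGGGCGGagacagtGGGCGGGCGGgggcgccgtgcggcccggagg
Slc5a7: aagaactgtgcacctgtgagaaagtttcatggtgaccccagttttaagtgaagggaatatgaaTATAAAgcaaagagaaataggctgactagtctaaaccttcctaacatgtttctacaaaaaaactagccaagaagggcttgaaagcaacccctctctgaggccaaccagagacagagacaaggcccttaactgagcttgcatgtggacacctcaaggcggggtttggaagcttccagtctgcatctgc
The Ache window had a GC content of 73.6% and held GGGCGG in 4 copies, the last pair overlapping, and GCGGGGGCG, an Egr-type motif that overlaps GGGCGG, in 2. The Slc5a7 window had 45.6% and held TATAAA once and neither of the others. On either strand, GGGCGG occurs in 32.7% of 32851 such windows, GCGGGGGCG in 2.57% and TATAAA in 12.4%. CCAAT, present in 33.8% of windows, was in neither. These are matches of letters, and the arrays read no binding. Of the 9 genes, 8 had an entry in the promoter table. GGGCGG also occurred in the windows of Chrm2, Chrm4, Slc18a3 and Ngfr, 1, 3, 2 and 4 times, and was not found in those of Chrm3 and Chat.

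Ngfr gave probe sets that disagreed. Probe set 1421241_at, which had the highest mean and stood for the gene, read 109, 73.4 and 63.98 in BNST, 58.8, 108 and 102 in NAc, and 108, 124 and 117 in dStr. Only NAc and dStr did not overlap, by a margin of less than 1 intensity unit. Probe set 1450177_at, also kept and listed with the same source sequence, read 95.8, 86.5 and 89.6 in BNST, 63.8, 27.2 and 66.6 in NAc, and 65.7, 87.5 and 68.6 in dStr. By this probe set BNST was above NAc, whereas by the first the regions overlapped. All NAc arrays of 1450177_at lay below the level set for the tests, which it entered through the 3 BNST arrays and dStr 2.

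The difference of 1421241_at between BNST and dStr was -0.46 (95% interval -0.94 to 0.03, limma adjusted p = 0.204), and that of 1450177_at was 0.25 (-0.26 to 0.77, limma adjusted p = 0.513). Against NAc they were -0.10 (-0.58 to 0.39, limma adjusted p = 0.934) and 0.70 (0.18 to 1.21, limma adjusted p = 0.204). By 1421241_at, BNST 1 was the highest array of its region and NAc 1 the lowest of its own. Without both, that probe set passed between BNST and dStr (-0.64, limma adjusted p = 0.00474) and between BNST and NAc (-0.52, limma adjusted p = 0.0391). The probe set 1450177_at still had the opposite sign there, at 0.22 and 0.80. The third probe set, 1454903_at, was not kept, with means of 46.0 ± 4.99, 51.1 ± 8.03 and 59.1 ± 10.7 in BNST, NAc and dStr (SD, n = 3 each). No direction can be given for Ngfr.

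**Figure D2:**
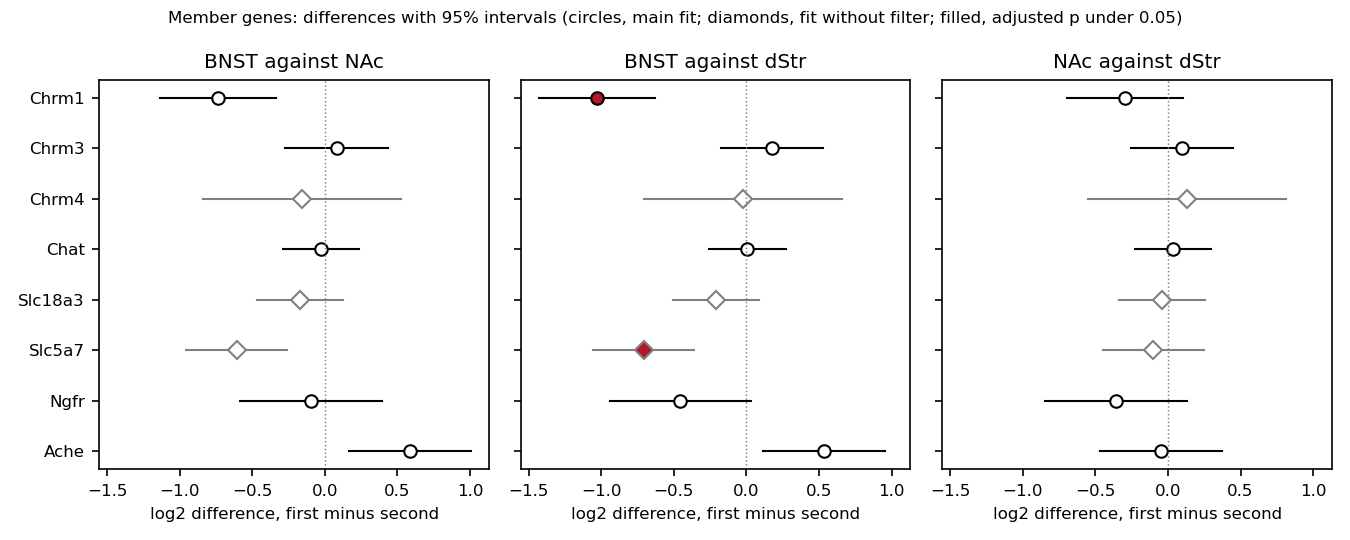
Difference of each of 8 genes in the 3 comparisons on the log2(intensity + 16) scale (horizontal axes, first region minus second), with 95% intervals. Circles are genes in the filtered test, diamonds those fitted without the filter, and filled symbols have a limma adjusted p under 0.05, as Chrm1 (-1.03) and Slc5a7 (-0.71) do between BNST and dStr.

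Among the 5 genes tested, limma called 0 between BNST and NAc, where 2.24% of all genes were called, and 2 had an unadjusted p under 0.05 (Chrm1 and Ache). For BNST and dStr it called 1, and 2 had an unadjusted p under 0.05. For NAc and dStr it called 0, where 2.05% of all genes were called, and 0 had an unadjusted p under 0.05. Without both BNST 1 and NAc 1 the counts were 2, 3 and 0, while the shares over all genes were 15.5%, 29.2% and 4.98%. Of the 6 kept probe sets, 3 did not overlap between BNST and NAc (Chrm1, Ache and Ngfr 1450177_at), 2 between BNST and dStr (Chrm1 and Ache) and 2 between NAc and dStr (Chrm1 and Ngfr 1421241_at). Over all kept probe sets the shares were 14.4%, 35.9% and 19.0%. Ngfr 1450177_at was kept through the BNST arrays and dStr 2, with every NAc array below the level set for the tests.

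The partners of these genes were described by lists of pathway genes. Of 7 tested regulators and marks of cholinergic neurons, 2 were higher in BNST than in either striatal region and 0 lower, where 2.24% of all genes were called against NAc and 14.3% against dStr. The 5 genes not called against NAc all had negative differences there. The list median was -0.26 against NAc and -0.10 against dStr, beside -0.05 and -0.06 over all genes. Without both BNST 1 and NAc 1, 2 of the 7 were also lower in BNST than in NAc, where 15.5% of all genes were called. Zic4, a zinc finger factor, read 194 ± 18.9 in BNST, 59.5 ± 10.1 in NAc and 52.7 ± 9.89 in dStr (SD, n = 3 each), with limma adjusted p-values of 0.00142 and 0.000152. All its NAc and dStr arrays lay below the level set for the tests, so that it was tested through the BNST arrays where it was high, and no fold is given. The count of 2 higher genes depends in part on that entry. Ecel1, a neuronal endopeptidase, read 599 ± 113, 238 ± 41.1 and 304 ± 20.1, 2.41-fold and 1.90-fold higher in BNST. The LIM factors that specify cholinergic neurons did not pass. Lhx8 differed by -0.38 between BNST and NAc and -0.10 between BNST and dStr (limma adjusted p = 0.70 and 0.864), and Isl1 by -0.34 and 0.03 (limma adjusted p = 0.726 and 0.963). Limma called 0 of the 7 between NAc and dStr, with 0 at an unadjusted p under 0.05.

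Among genes of acetylcholine and choline metabolism, 2 of 14 tested were lower in BNST and in NAc than in dStr and 0 higher. For BNST that share equals the 14.3% called over all genes, and for NAc 2.05% of all genes were called. Slc44a4, among the 2, entered the tests only through the dStr arrays, so that both counts depend in part on that entry. Prima1, which anchors Ache in neuronal membranes, read 79.9, 59.99 and 48.6 in BNST, 100, 104 and 115 in NAc, and 336, 286 and 417 in dStr. No region overlapped another, and the Prima1 arrays read lowest in BNST, where those of Ache read highest. Of all kept probe sets, 14.4% did not overlap for BNST against NAc, 35.9% for BNST against dStr and 19.0% for NAc against dStr. The lower Prima1 value of BNST did not pass against NAc (-0.65, limma adjusted p = 0.100). The higher Ache value of BNST passed against neither striatal region in the main test. Prima1 was 4.60-fold lower in BNST than in dStr (-2.20, SE 0.18, limma adjusted p = 8.8e-05) and 2.93-fold lower in NAc than in dStr (-1.55, limma adjusted p = 0.00207). Both calls held in all 21 alternatives run, with adjusted p-values up to 0.000998 and 0.0153.

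Slc44a4, a transporter of the choline transporter-like family, stood at the floor on all 3 BNST arrays and read 15.0 (the floor), 49.2 and 16.9 in NAc and 175, 154 and 126 in dStr. It was called lower in BNST than in dStr (limma adjusted p = 0.000213) and lower in NAc than in dStr (limma adjusted p = 0.00304). All its BNST and NAc arrays lay below the level set for the tests, which it entered through the dStr arrays where it was high, and no fold is given. Bche, the second enzyme that splits acetylcholine, read 95.6 in BNST, 106 in NAc and 133 in dStr on average, a difference of -0.42 between BNST and dStr that did not pass (limma adjusted p = 0.0622). Limma called 0 of the 14 between BNST and NAc, with 1 at an unadjusted p under 0.05.

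**Figure D3:**
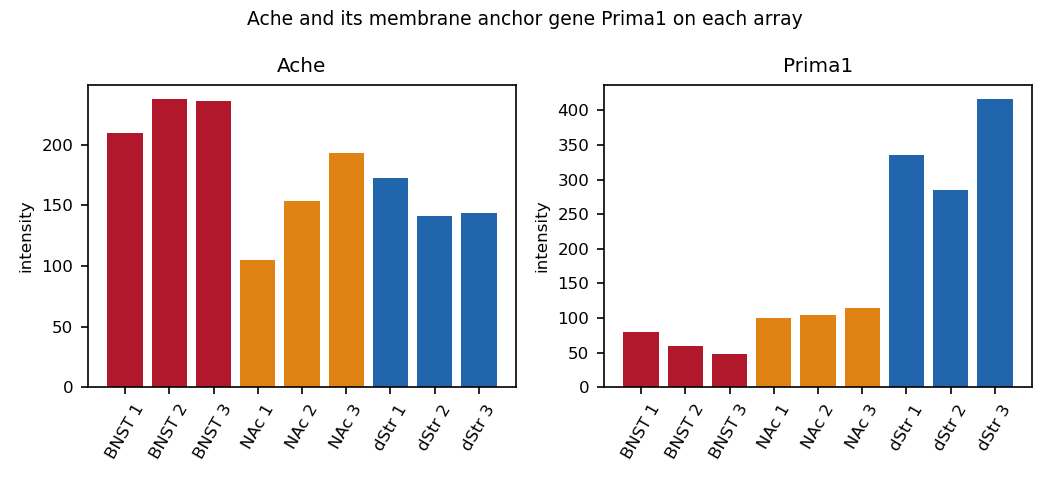
Intensity (linear, vertical axes from 0) of Ache and Prima1 on each of the 9 arrays as bars. Ache is highest on the 3 BNST arrays (210 to 238), whereas Prima1 is lowest there (48.6 to 79.9) and highest in dStr (286 to 417). Of the BNST differences of these genes, only that of Prima1 from dStr passed the main test.

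Gq-coupled signalling genes, the route of Chrm1 and Chrm3, were mostly lower in BNST than in dStr. Of 13 tested, 7 were lower and 0 higher, where 9.33% of all genes were lower and 4.94% higher. The median difference was -0.96, beside -0.06 over all genes. The M-current channel subunits, which muscarinic receptors close, led the list. Kcnq3 read 149 ± 115 in BNST and 829 ± 82.6 in dStr (SD, n = 3 each), 5.90-fold lower (limma adjusted p = 0.00182), and Kcnq5 was 3.83-fold lower (limma adjusted p = 0.00478). Rasgrp1, a diacylglycerol-regulated Ras activator, was 3.202-fold lower, and the kinase Prkcb 2.42-fold lower. The others that passed, named after their values were seen, were Plcb1, Dgkz and Rgs2, and for Plcb1 and Rgs2 another kept probe set went the other way. The alpha subunit Gnaq itself differed by 0.01 (limma adjusted p = 0.978). Without dStr 3 only 4 of the 7 passed, and Prkcb had a limma adjusted p of 0.0545.

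Against NAc, where 2.24% of all genes were called, 2 of the 13 were lower, Kcnq5 (3.07-fold, limma adjusted p = 0.043) and Rasgrp1 (2.41-fold, limma adjusted p = 0.0263). That count was 5 without BNST 1, 1 without BNST 2 or NAc 1, and 0 without BNST 3, NAc 2 or any 1 of the dStr arrays. It was 7 without both BNST 1 and NAc 1, where 15.5% of all genes were called. Limma called 0 of the 13 between NAc and dStr, with 0 at an unadjusted p under 0.05. The medium spiny neuron markers given beside Chrm1 moved with these genes too, and their part was not tested.

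Genes of Gi signalling, the route of Chrm2 and Chrm4, went both ways between BNST and dStr, with 5 of 23 higher and 7 lower, beside 4.94% and 9.33% of all genes, and a median difference of -0.12. Higher in BNST were the G-protein gamma subunits Gng2 (5.55-fold) and Gng3 (1.84-fold), the GIRK channel subunit Kcnj3 (3.05-fold) and the receptor kinase Grk3 (2.27-fold), besides Gnai1. Lower in BNST were Rgs9 (6.02-fold), which shortens G-protein signals in striatal neurons and also stands among the medium spiny neuron markers, the gamma subunit Gng7 (4.24-fold), Rgs8 (3.65-fold) and Rgs4 (3.43-fold). Adcy5, the main adenylyl cyclase of the striatum, was 2.90-fold lower, and Gnb5 and Adcy1 also passed. These last 3 and Gnai1 were named in this comparison after their values were seen. In Kcnj3, Adcy5 and Gnai1, 1 other kept probe set went the other way.

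Compared with NAc, where 2.24% of all genes were called, 1 of the 23 Gi genes was higher in BNST, Kcnj3 (2.80-fold). In the same comparison 4 were lower, Gng7 (3.24-fold), Rgs8 (2.88-fold), Rgs9 (2.47-fold) and Adcy5 (2.32-fold). Adcy5 lost its call there without BNST 3 (limma adjusted p = 0.0608) or NAc 2 (0.0669). The counts were 2 and 7 without NAc 3, and the higher count was 2 without NAc 1. Of the same genes, Rgs9 was 2.44-fold lower in NAc than in dStr and Gnai1 was 1.503-fold higher, where 2.05% of all genes were called. Gnai1 had a limma adjusted p of 0.0461 there, and from 0.0574 to 0.205 without any 1 of the NAc arrays, the dStr arrays or BNST 3. The number lower there was 2 without BNST 1 or BNST 2 and 3 without NAc 1.

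**Figure D4:**
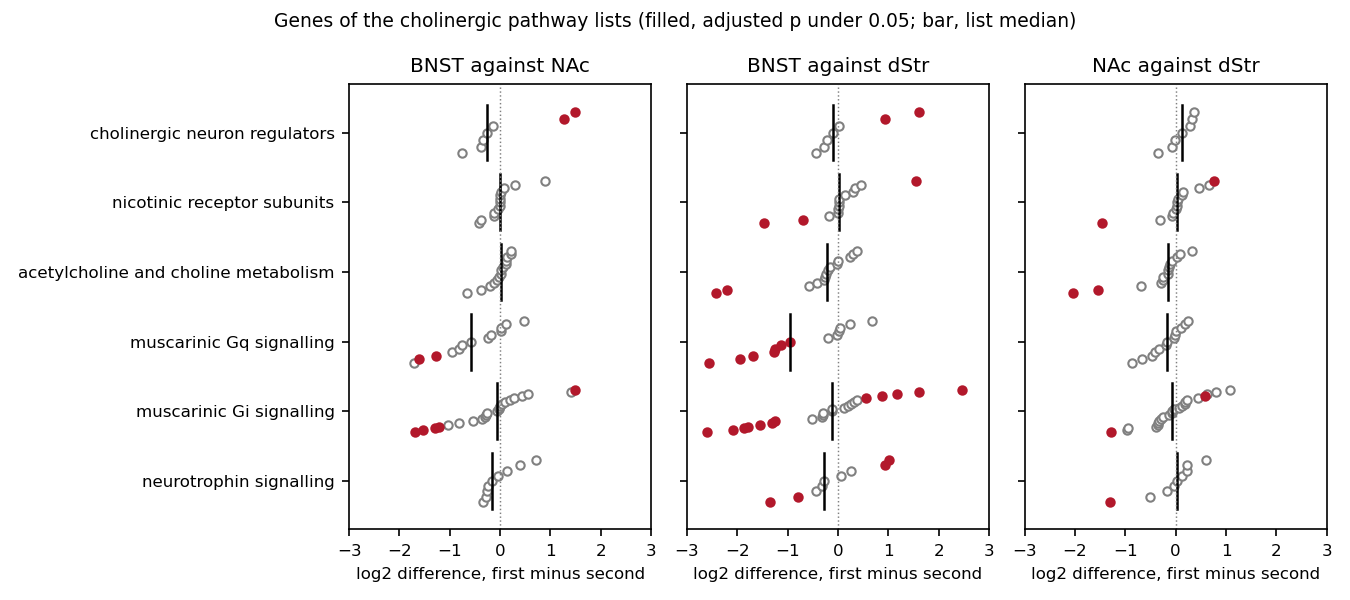
Differences on the log2(intensity + 16) scale (horizontal axes, first region minus second) of the tested genes of 6 pathway lists in the 3 comparisons, with a point per gene, filled where the limma adjusted p was under 0.05, and a bar at the list median. The median of the Gq list lies at -0.96 between BNST and dStr, whereas the Gi list has called genes on both sides.

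Among nicotinic receptor subunits and their modulators, 3 of 13 tested were called between BNST and dStr (23.1%, beside 14.3% of all genes), 1 higher and 2 lower in BNST. The call of 2 of these 3 depended on single arrays. Lynx1, a membrane protein that dampens nicotinic receptors, read 314 ± 6.20 in BNST, 324 ± 91.9 in NAc and 896 ± 92.4 in dStr (SD, n = 3 each), 2.75-fold lower in BNST and in NAc than in dStr (limma adjusted p = 0.00075 and 0.00361). The subunit Chrna7 was 1.62-fold lower in BNST (limma adjusted p = 0.0249), and Ly6h, a Lynx relative, was 2.94-fold higher (limma adjusted p = 0.0444). Chrna7 lost its call without BNST 2, BNST 3, dStr 2 or dStr 3 (limma adjusted p from 0.0793 to 0.111), and Ly6h without any 1 of the BNST or dStr arrays or NAc 2 (0.0621 to 0.131).

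The widespread subunits Chrna4 and Chrnb2 differed by -0.17 and 0.02 between BNST and dStr (limma adjusted p = 0.486 and 0.949). Between the striatal regions 2 of the 13 were called (15.4%, beside 2.05% of all genes), Lynx1 and Tmem35a. Tmem35a, a chaperone of nicotinic receptors, was 1.71-fold higher in NAc than in dStr (limma adjusted p = 0.0322), a call lost without any 1 of the NAc or dStr arrays (0.0576 to 0.144). Limma called 0 of the 13 between BNST and NAc, with 2 at an unadjusted p under 0.05.

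Of 9 tested genes of neurotrophin signalling, 2 were higher and 2 lower in BNST than in dStr, beside 4.94% and 9.33% of all genes. Maged1, a partner of Ngfr, was 2.01-fold higher. Ntrk2, the receptor for brain-derived neurotrophic factor, was 1.92-fold higher by its brightest probe set, but 4 of its 5 other kept probe sets went the other way. Sorcs2, a co-receptor of Ngfr, was 2.55-fold lower in BNST and 2.46-fold lower in NAc than in dStr. Ntrk3 was 1.72-fold lower in BNST (limma adjusted p = 0.0424), a call lost without BNST 2, BNST 3, NAc 2, dStr 1 or dStr 3 (0.061 to 0.159). Limma called 0 of the 9 between BNST and NAc, with 2 at an unadjusted p under 0.05. The fifth muscarinic receptor, Chrm5, was not analysed here.

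Chrm1, Slc5a7 and Ache had log2 values that spanned at least 1 over the 9 arrays, and the genes most like them were found by the mean absolute gap between profiles, each centred on its own mean. For Chrm1 these were Zfp46 (0.054), Usp2 (0.086) and Mbnl2 (0.088), where the median gene lay at 0.41. Mean intensities of Zfp46 were 513 in BNST, 884 in NAc and 1147 in dStr. For Slc5a7 the nearest were Wee1, Hoxb5os and Ica1, at gaps of 0.11, beside a median of 0.32. For Ache they were Zfp783, Hoxd8 and Wrn, at gaps of 0.11, beside a median of 0.35. Genes without an established name were skipped. Because these genes were picked for the smallest gaps, they lie below the median by that choice. The Slc5a7 profile lies wholly below the level set for the tests, with 1 array at the floor.

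Marker lists of other cells that the punches could hold were counted as well. Between BNST and dStr, 9.33% of all genes were lower and 4.94% higher in BNST. Microglia markers were lower in BNST than in dStr in 6 of 8 genes and cortical projection neuron markers in 2 of 5 (Nrgn and Lamp5). On that cortical list Slc17a7, Neurod6, Tbr1 and Emx1 had probe sets, but none that was kept, so these genes were not tested. Endothelial and pericyte markers were lower in 1 of 8 (Rgs5), or 12.5%, near the share over all genes. Of markers of the medial habenula, a nucleus with cholinergic neurons, and the thalamus, 2 of 8 were higher in BNST (Slc17a6 and Prkcd), while the nicotinic subunits Chrna3 and Chrnb3 on that list differed by 0.02 and 0.03. Of 8 interneuron markers 1 was higher (Calb2) and 1 lower (Kit). Limma called 0 of 9 oligodendrocyte markers and 0 of 7 of meninges and Schwann cells, with 0 and 2 at an unadjusted p under 0.05. Genes singled out by name here were chosen after their values were seen.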

How the data were processed

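Total RNA from punches of 300 µm brain slices was labelled from 10 ng in a two-cycle protocol, per the labels. The authors deposited linear probe-set intensity values of 45037 probe sets on 9 arrays. Neither software nor scaling of the probe-set summaries is given in the labels used here. The annotation gave 34945 probe sets 1 gene symbol, 932 several and 9160 none.

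Values were tested as log2(value + 16) in limma 3.58.1 (R 4.3.3), in 1 fit with a mean per region, 6 residual degrees of freedom, 2-sided tests and Benjamini-Hochberg adjustment over all genes. The filter left 29293 probe sets, and each gene was represented by its brightest kept probe set, which gave 14208 genes. Another fit tested all kept probe sets, and another used no filter. The number of arrays limits the precision. The script was tested on simulated data. Promoter windows came from RefSeq (GRCm38.p6).

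The genes and lists were chosen with earlier results of these data known. Named were all member genes, up to 4 called genes per list, comparison and direction, Chrm5, and the 3 genes nearest in profile. Alternatives were other normalizations, filters, pseudocounts, probe-set rules, priors and blocks, and arrays left out. Combining no filter with the others for Chrm4, Slc18a3 and Slc5a7 was added after the data were seen.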

Additional observations from a re-analysis of the deposited data

How the results depend on the processing

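Chrm1 was called between BNST and dStr in all 21 alternatives run, with differences from -1.17 to -0.83 and adjusted p-values from 0.000684 to 0.0235. Of the other tested values, Chrm3, Chat, Chrm4, Slc18a3 and Ngfr probe set 1450177_at were called in none of the alternatives run for them. Of the alternative values of single genes, 1166 kept direction and side of the threshold, 70 lost a call, 9 gained one and 25 changed sign. With quantile normalization, 2 of the genes described were called between BNST and dStr, the second being Ache (0.66, limma adjusted p = 0.0375). Without the filter the count there was also 2, of 8 genes, but the second was Slc5a7, and Ache had a limma adjusted p of 0.11. The count was 2 with the arrays of the pair alone (Ache, limma adjusted p = 0.0242), and 3 without both BNST 1 and NAc 1. The F test called 2 of the genes described without the filter (Chrm1 and Slc5a7) and 3 without those arrays, and 2 were called between BNST and NAc without those arrays. Leaving out 1 array gave 0 to 1 between BNST and NAc, 1 to 2 between BNST and dStr, 0 between NAc and dStr and 1 to 2 in the F test. The cause of these changes was not tested.

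Over all genes, the main counts were 318, 2027 and 291 in the 3 comparisons and 1461 in the F test. They were 2203, 4150, 707 and 3686 without both BNST 1 and NAc 1. Leaving out 1 array gave 101 to 617, 1112 to 2674, 112 to 419 and 740 to 1962. Kept probe sets tested singly gave 529, 3995 and 493, out of more features, and the pair alone gave 71 between BNST and NAc, with fewer arrays. Deviations of arrays with the same replicate number correlated at r from -0.51 to -0.22 between BNST and NAc and from -0.16 to 0.26 in the other comparisons. With 3 arrays per region, each centred on its region's mean, this cannot decide whether the numbers pair samples. The labels state no pairing. With the replicate block the counts were 196 between BNST and NAc, 183 between NAc and dStr and 953 in the F test, and Slc5a7 without the filter had a limma adjusted p of 0.0626. The block also ended the calls of Rasgrp1 and Kcnq5 between BNST and NAc, of Ntrk3, Ly6h and Chrna7 between BNST and dStr and of Gnai1 between NAc and dStr.

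Signs changed for differences that did not pass in the main test, among them that of Ngfr between BNST and NAc, which passed without both BNST 1 and NAc 1 (-0.52, limma adjusted p = 0.0391). Between BNST and NAc, Chat became 0.012 with quantile normalization and 0.0059 with median centring, and Ngfr 0.30 with the mean of its probe sets. Chrm4 became 0.031 between BNST and dStr with median centring and no filter. Without both BNST 1 and NAc 1, Ache became 0.16 and Chrm4 -0.079 between NAc and dStr. With 1 array left out, the ranges between BNST and NAc were -0.058 to 0.019 for Chat, -0.030 to 0.20 for Chrm3, -0.33 to 0.038 for Ngfr and -0.43 to 0.053 for Chrm4. Between BNST and dStr they were -0.050 to 0.044 for Chat and -0.24 to 0.18 for Chrm4. Between NAc and dStr they were -0.024 to 0.069 for Chat, -0.23 to 0.16 for Ache, -0.079 to 0.40 for Chrm4 and -0.12 to 0.089 for Slc18a3. With the mean of probe sets, Kcnj3 (0.49) and Adcy5 (-0.36) lost their calls between BNST and NAc, as Ntrk2 (0.08) did between BNST and dStr and Gnai1 between NAc and dStr. Quantile normalization moved the median of all genes between BNST and dStr by 0.12, and the share of called genes higher in BNST from 34.6% to 52%. Median centring gave 43.2%. Between BNST and NAc that share went from 34% to 46%. Signal near the floor limits Chrm4, Slc18a3 and Slc5a7.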
